A study of Caenorhabditis elegans with 8 samples.

Results

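The Hedgehog-related and patched-related genes of Caenorhabditis elegans were scored for RNA recovered with the FLAG-tagged protein MSTR-1. They were taken by name from the RefSeq gene table of WBcel235, as all protein-coding genes whose symbol starts with grl-, grd-, wrt-, hog-, qua-, ptr- or ptc-. This gave 85 of 19983 protein-coding genes. The data came from RNA immunoprecipitation followed by sequencing (RIP-seq), in which RNA crosslinked to a tagged protein is purified with that protein. Groups were RIP of worms carrying F22D6.2(on49[MSTR-1::3xFLAG]) I, strain WD656, input of that strain, RIP of untagged N2 wild-type worms, and input of N2. Each group had 2 biological replicates, 8 samples in all, and all were young adults held at 25 °C and fixed with 2% formaldehyde for 30 min. The strain carries the tag in an allele of the gene for MSTR-1 itself, and lysates were of whole worms, so no tissue is resolved.

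Hedgehog proteins are secreted signals that bind Patched, a membrane protein with a sterol-sensing domain, in many animals. C. elegans has no close Hedgehog orthologue and no Smoothened, but has large families of related genes. The secreted, ligand-like families are the ground-like (grl), groundhog (grd) and warthog (wrt) proteins with hog-1 and qua-1, and several of these carry the self-cleaving Hog domain of Hedgehog. The receptor-like families are the Patched homologues (ptc) and the patched-related proteins (ptr). Many of these genes are known to act in the epidermis and its cuticle, in molting and in the trafficking of sterols and secreted proteins.

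The authors deposited 1 list of 1207 regions called specific to WD656. Each region had 1 fold over control, 1 −log10 p and 1 −log10 q, all values given by the authors. Every region is named after RIP replicate 2 of WD656, and values of single libraries were not analysed here. Replicate errors and tests between libraries are therefore missing from all results. The authors' fold had a median of 2.10 over all regions (quartiles 1.78 and 2.49, range 1.11 to 5.66). The read pileup at each summit, the base with most reads, and the caller's control level there were worked back from that fold and p-value. The 95% intervals on pileups are exact Poisson intervals and cover counting error only. mstr-1 (F22D6.2), the tagged gene, had 1 region, whose fold of 2.26 came from 88 reads (70.6 to 108) over a control of 38.3.

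Few Hedgehog-related or patched-related genes carried a region. Regions sharing 1 base or more with the gene span were found in 3 of 85 genes (3.53%), against 954 of all 19983 protein-coding genes (4.77%). The share was thus near that of all genes, and nothing particular to these families is read from it. The 3 genes were grl-16, grd-5 and ptr-21, with 4 regions between them. grl-16 held 2 of these and was the single gene of the 85 with more than 1 region, beside 209 of all protein-coding genes (1.05%). The median fold of the 4 regions was 1.99, beside 2.10 for all 1207. Their median −log10 q was 11.97 and their median pileup 209 reads, beside 5.41 and 55 reads over all regions. These medians count grl-16 with 2 regions that are not independent. The ptr-21 region lay below the medians of all regions, at a −log10 q of 1.63 and 31 reads.

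**Figure D1:**
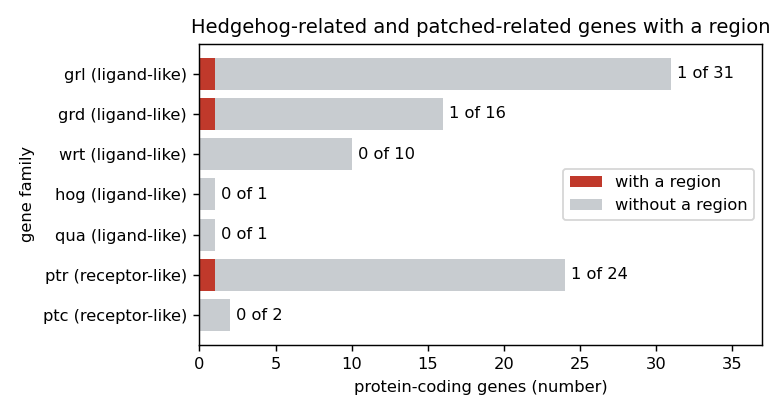
Number of protein-coding genes in each family with (red) and without (grey) a region specific to the tagged strain, ligand-like families above and receptor-like families below. The grl, grd and ptr families have 1 gene with a region each, and the wrt, hog, qua and ptc families have 0. Over all protein-coding genes, 4.77% have a region.

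Of the secreted, ligand-like genes, 2 of 59 carried a region (3.39%), beside 4.77% of all protein-coding genes. The ground-like family had 1 of 31 genes with a region, grl-16, and the groundhog family 1 of 16, grd-5. The warthog family had 0 of 10, and neither hog-1 nor qua-1, each the only gene of its name, had one. The receptor-like genes are longer, with a median span of 5937 bp against 1784 bp, so the 2 shares are not compared. Of all protein-coding genes of 5000 bp or more, 7.96% carried a region. Of the receptor-like genes, 1 of 26 carried a region (3.85%). This was ptr-21, 1 of 24 patched-related genes, while the Patched homologues ptc-1 and ptc-3 had none. ptc-1 is known for its role in germline cytokinesis and ptc-3 for roles in growth and osmotic balance.

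grl-16 (Y65B4BR.6), which encodes a ground-like protein, had the strongest region of the 85 genes. The gene spans I:572173 to 575120, 2948 bp. Its first region, at 572443 to 573680, reached a fold of 2.48, and its −log10 q was 49.4. The pileup held 364 reads (328 to 403), over a control level of 146. The region ranked 35th of 1207 by −log10 q, 124th by pileup and 330th by fold. It lay in the part of the list with control levels of 60 to 300 reads, where it ranked 14th of 175 by fold and where the median was 1.70.

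The second region of grl-16 was narrower and less enriched. It lay at 574591 to 575003, 413 bp wide, and its fold was 1.60 at a −log10 q of 11.9. The pileup was 298 reads (265 to 334) against a control level of 186. The second summit thus had a lower RIP pileup and a higher control level. The counting intervals of the 2 pileups overlap, which does not show that the pileups are equal, and their difference was not tested. By fold it ranked 1045th of all regions and 109th of the 175 with a like control level. A gap of 910 bp separated the regions, and their summits were 2050 bp apart. Both came from the same library and the same gene, so they are not independent measurements.

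grd-5 (F41E6.2), a groundhog gene, carried a region over most of its length. The gene spans V:8619032 to 8619870, 839 bp, and the region ran from 8619111 to 8619715. It covered 72.1% of the span, against 56.0% for both regions of grl-16 together. The fold was 2.16 and the −log10 q 12.05, from 120 reads (99.5 to 143) against a control level of 54.9. This region ranked 548th of 1207 by fold and 264th by −log10 q. The grd-5 fold was thus close to the median of all regions, 2.16 beside 2.10.

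ptr-21 (Y65B4BR.3), a patched-related gene, had the weakest evidence of the 3. The gene spans I:550696 to 556676, 5981 bp, and its region at 551865 to 552451 covered 9.81% of it. The fold was 1.82 and the −log10 q 1.63, near the lowest −log10 q in the list, 1.30. The pileup was 31 reads (21.1 to 44.0) against a control level of 16.6. It ranked 1141st of 1207 by −log10 q, and 481st by fold of the 620 regions with control levels above the floor and up to 60 reads. Its summit was at base 2 of the region, and 111 of all 1207 regions (9.2%) had a summit within 10 bp of an end.

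**Figure D2:**
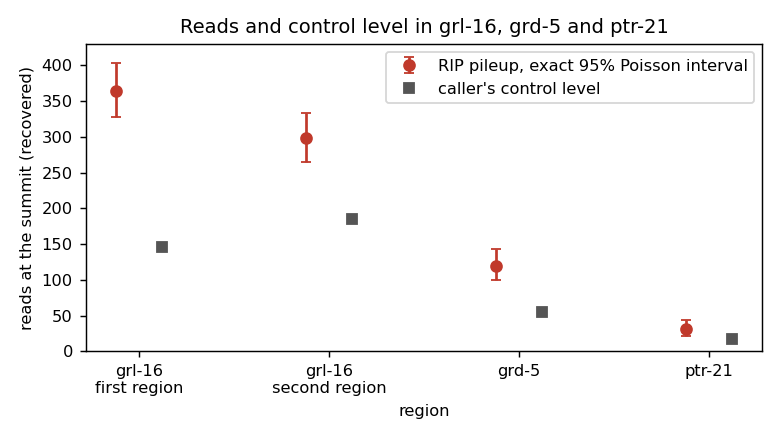
Reads recovered at the summit of each of the 4 regions (red points, with exact 95% Poisson intervals that cover counting error) beside the caller's control level (grey squares), both in reads of the RIP library's scale. All 4 control levels lie below the interval of their pileup, which follows from the calling of these regions above control. The distance is smallest for ptr-21 (31 reads against 16.6).

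The 4 regions differed in coverage as well as in fold. RIP pileups ran between 31 and 364 reads and control levels between 16.6 and 186. None lay at the caller's control floor of 13.49 reads, which 304 of the 1207 regions shared, and none above a control level of 300, as 108 regions did. Folds that entered the list depended on the control level: the lowest was 1.86 at the floor, 1.46 between the floor and 60 reads, 1.19 between 60 and 300, and 1.11 above 300. Of the 22 regions with the control level of ptr-21, 16.6 within 0.01 reads, 2 had a lower fold than its 1.82, and the lowest of these was 1.76.

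**Figure D3:**
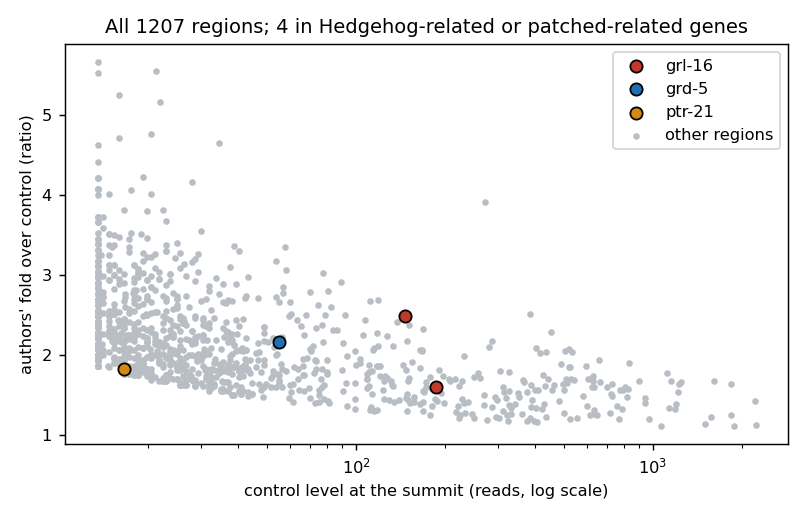
The authors' fold over control (ratio) against the recovered control level (reads, log scale) for the regions in grl-16 (red), grd-5 (blue) and ptr-21 (orange) and for all other regions (grey). The first grl-16 region, at 2.48, stands in the upper part of the regions with a like control level, and ptr-21, at 1.82, at the lower edge.

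Within the genes the regions lay at different places. Strand and exons were not used here, so positions are given from the end of the span with the lower coordinate and cannot be assigned to exons, introns or untranslated sequence. The first grl-16 summit was 394 bp from that end (13.4% of the span) and the second 2444 bp (82.9%). The grd-5 summit was at 612 bp (72.9%) and that of ptr-21 at 1170 bp (19.6%). All 4 regions lay wholly inside their gene, and no other annotated gene of any type overlapped them.

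**Figure D4:**
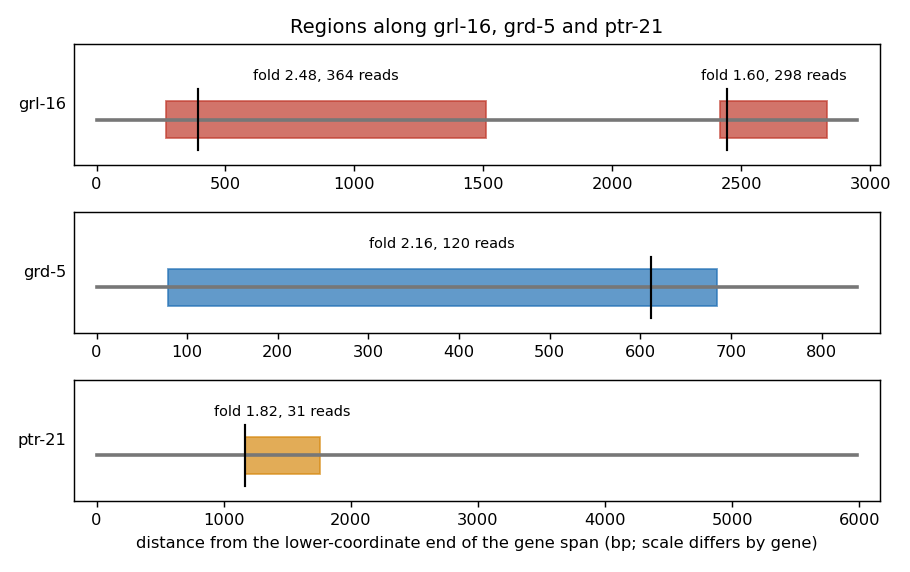
Regions (coloured boxes) and summits (black ticks) along the spans (grey lines) of grl-16, grd-5 and ptr-21, in bp from the lower-coordinate end, each gene on its own scale. The grd-5 region covers 72.1% of the span and the ptr-21 region 9.81%.

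grl-16 and ptr-21 lie near each other on chromosome I, though not side by side. A stretch of 15496 bp separates their spans and holds 3 protein-coding genes, lpr-1, Y65B4BR.1 and ceh-9, none with a region. Of the 85 genes taken in order along each chromosome, 10 pairs of successive genes lay at that gap or closer, this pair among them. The 3 regions in ptr-21 and grl-16 follow each other directly in the list. The preceding region, in wwp-1, lay 13137 bp before that of ptr-21, and the following one, in T06A4.3, lay 193507 bp after the last of grl-16. Chromosome I held 9 of the 85 genes, 2 with a region, beside 159 of all 2877 protein-coding genes there (5.53%). V held 32, of which grd-5 was the one with a region, beside 174 of 4995 (3.48%). None of the 11 genes on II, the 7 on III, the 13 on IV and the 13 on X had one, where 3.83%, 6.85%, 5.24% and 4.98% of all protein-coding genes did, in that order. With so few genes per chromosome, no difference from these shares is read. This neighbourhood was noticed after the values were seen, and its chance was not tested.

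The 3 genes were of different lengths. Spans of the 85 genes ran from 519 to 14680 bp with a median of 2726 bp, beside 2005 bp for all protein-coding genes. Of the genes under 2000 bp, 1 of 36 had a region (grd-5), beside 4.17% of all protein-coding genes of that length. Of those from 2000 to under 5000 bp it was 1 of 26 (grl-16), beside 4.18%. Of those of 5000 bp or more it was 1 of 23 (ptr-21), beside 7.96%. The receptor-like genes had a median span of 5937 bp and the ligand-like genes one of 1784 bp.

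The other 82 genes had no region. Of these, 30 were ground-like, 15 groundhog, 10 warthog and 23 patched-related genes, with hog-1, qua-1, ptc-1 and ptc-3. The warthog genes were wrt-1 to wrt-10, and their spans ran from 1302 to 14680 bp. The ground-like genes were the rest of grl-1 to grl-31, the groundhog genes the rest of grd-1 to grd-16, and the patched-related genes the rest of ptr-1 to ptr-25, in which the gene table holds no protein-coding ptr-7. The nearest region was a median of 25183 bp away and 15 genes had one within 10000 bp. These distances were not taken for other protein-coding genes, so nothing particular to the 82 genes is read from them. The shortest distances were those of grl-14, 137 bp from a region in sbt-1 (fold 2.28), and wrt-2, 160 bp from a region in pccb-1 (fold 1.85). Both regions lay in those other genes. qua-1, known for a role in molting, was 2495 bp from a region in the collagen gene col-76 (fold 2.83). Several other members lay nearer to a region than qua-1, among them grl-6 (1122 bp) and ptr-20 (1334 bp). The lowest pileup of any region was 26 reads, and a gene with no region may have had too few reads or no enrichment. It may also have had a region that was not kept as specific to WD656. The numbers in the region names run to 1464, while the list holds 1207 regions. These cases cannot be told apart from the list.

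Some members lie next to each other in the genome. In 7 pairs no protein-coding gene stood between them in order of start: wrt-1 with wrt-10, grd-13 with grd-3, grd-3 with grd-10, grl-29 with grl-30, grl-30 with grl-31, grl-9 with grl-8, and grd-14 with grd-4. Gaps ran from 15 bp (wrt-1 and wrt-10) to 1049 bp (grl-29 and grl-30). No gene of these pairs carried a region, beside 4.77% of all protein-coding genes. With so few genes in the pairs, nothing is read from this. The handling of reads shared by similar genes stands as not given in the sources used here.

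Other genes linked to Hedgehog signalling were taken as a list of 12: the patched-related daf-6, the Dispatched-related che-14 and ptd-2, the Niemann-Pick type C homologues ncr-1 and ncr-2, scp-1, the GLI homologue tra-1, hhat-1, hhat-2, rib-1, rib-2 and lrp-1. Of these, 2 of 12 carried a region, tra-1 and ncr-2, beside the same 4.77% of all protein-coding genes. Both span more than 5000 bp, and of all protein-coding genes of 5000 bp or more, 7.96% carried a region. tra-1, a zinc-finger transcription factor known for its role in sex determination, spans 24312 bp and had 3 regions. Their folds were 1.95, 2.28 and 2.21 from 37, 32 and 31 reads. The −log10 q values were 2.58, 3.50 and 3.12, below the median of 5.41 over all regions. The third region was 10964 bp wide. The control levels were 18.5 for the first and 13.49, the floor, for the others.

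The ncr-2 region cannot be assigned to that gene alone. Its fold was 1.72 with a −log10 q of 22.8, from 431 reads (391 to 474) against a control level of 250. The whole region also lay inside the collagen gene col-91 (F09G8.6), whose span is inside that of ncr-2. Without strand, reads of these genes cannot be separated.

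Genes of molting and of the apical extracellular matrix, in which Hedgehog-related genes are known to act, formed a further list of 24 names, of which 23 were found as protein-coding symbols and bus-8 was not. One carried a region (1 of 23, 4.35%, beside 4.77%). This was mlt-8 (W08F4.6), whose fold of 2.76 came from 39 reads (27.7 to 53.3) at the control floor of 13.49, at a −log10 q of 6.52. The molting regulators nhr-23, nhr-25 and lin-42 and the matrix genes noah-1, noah-2, fbn-1 and let-653 had none.

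The cuticle collagens, secreted by the epidermis, give a contrast in counts. Of the 156 protein-coding genes whose symbol starts with col-, 73 carried a region (46.8%), where grl-16, grd-5 and ptr-21 made up 3 of 85 (3.53%). The share over all protein-coding genes was 4.77%, so it is the collagens that stand apart from it. The collagen regions had a median fold of 1.66 over a median control level of 322, beside 1.99 over 101 for the 4 regions of Hedgehog-related and patched-related genes. Control levels above 300 were found for 41 of the 75 collagen regions and 0 of those 4. Coverage differed between the lists along with the counts, and its part in them was not tested.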

How the data were processed

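RIP-seq was made from 8 samples in 4 groups of 2. STAR and deepTools were named, per the submitters' processing notes. Peak caller, control library, genome build, strand and the rule for strain-specific regions stand as not given in the sources used here. Without a header, the file has 11 columns, of which the first 10 have the layout of MACS2 narrow peaks. The authors' fold is a ratio over control, their p-value and q-value are deposited as −log10, and their deposited score equals 10 times the −log10 q rounded down. No depth per sample could be had.

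Regions were assigned by 1 shared base to RefSeq gene spans of WBcel235. Coordinates are 1-based. Pileups were solved from fold = (pileup + 1) / (control + 1) and the Poisson tail, and 1166 of 1207 (96.6%), with all 4 described, came out whole within 0.02. The solving was tested on made-up regions with known counts. These formulas are assumed.

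The members and lists were chosen with earlier results of these data known, so no enrichment test was made. Every gene with a region was to be named. Protein sequences were not used here, so the planned comparison of protein likeness was not run. Alternatives varied overlap, shared regions, thresholds, membership and the fold formula. Computation used scipy 1.17.1, pandas 2.3.3 and numpy 2.4.6 under Python 3.11.15, with plots by matplotlib 3.10.9.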

Additional observations from a re-analysis of the deposited data

How the results depend on the processing

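No paired analysis was possible because each region has 1 value in place of 1 per library, so leaving out replicates could not be done either. The count of 3 genes held when a region was assigned by its midpoint, by 50% or more of its width or by most shared bases, and with only regions over 1 protein-coding gene. These rules could not change it, because all 4 regions lay wholly inside their gene and overlapped no other. With a fold of 2 or more, a −log10 q of 5 or more, or the 603 regions of highest fold, 2 of the 85 genes were left, grl-16 and grd-5, and the patched-related family had 0. At these thresholds 596 (2.98%), 579 (2.9%) and 523 (2.62%) of all protein-coding genes were left, in that order. The median fold of the regions left was 2.32, 2.16 and 2.32 in that order. With the pathway list added, 5 of 97 genes carried a region, beside 4.77% of all protein-coding genes. With pseudogenes added (ptc-2, grl-32 and grd-17) the count was 3 of 88, and among spans of 2000 bp or more it was 2 of 49, beside 538 of all such protein-coding genes (5.37%), both chosen after seeing the data. So was the setting with only regions above 0 in the unlabelled 11th column, which left 0 genes of the ground-like, groundhog and patched-related families and 0 of 85 in all, beside 278 of all protein-coding genes (1.39%). With no count added in the fold formula, pileups came out whole in 0 of the 4 regions. Protein likeness was not run. The ptr-21 region rests on 31 reads, the fewest of the 4.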

Other observations

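The unlabelled 11th column of the deposited table was 0 for all 4 regions of grl-16, grd-5 and ptr-21, as it was for 908 of all 1207 regions. It was 1 for the region shared by ncr-2 and col-91, and 0 for the 3 regions of tra-1 and for those of mlt-8 and mstr-1. The meaning of this column stands as not given in the sources used here.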
